A study of Mus musculus with 6 samples.

Results

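The metalloprotease families and the genes of plasminogen activation were examined in mast cells grown from bone marrow (BMMCs) of 2 mouse strains, BALB/c and C57BL/6. Members were all genes whose symbol starts with Mmp or Adam followed by a digit, with Adamts or with Tmprss, together with Plau, Plaur, Plat, Hgfac, Htra1, Htra2, Htra3, Prcp and Fgl2. This rule gave 107 of 35297 genes in the tables. By family they were 34 ADAM, 23 MMP, 19 ADAMTS, 17 TMPRSS and 5 ADAMTS-like genes, 3 HTRA genes, 3 genes of plasminogen activation, and Hgfac, Prcp and Fgl2. The mice of both strains were naive wild type. Marrow cells were kept with stem cell factor, TGF-β1, IL-9 and IL-3, and RNA was taken on day 20. The labels name no stimulus. BALB/c BMMCs gave 3 libraries (S9, S10 and S11) and C57BL/6 BMMCs gave 3 (S12, S13 and S14). The labels do not say whether the libraries of a strain came from separate mice, so the tests measure the spread between these libraries.

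Metalloproteases hold a zinc ion in the active site. Matrix metalloproteases (MMPs) cut collagens and other matrix proteins, ADAM proteins sit in the cell membrane and release the outer parts of other membrane proteins (shedding), and ADAMTS proteins are secreted and cut matrix and plasma proteins. In plasminogen activation, the serine protease urokinase (Plau) binds its receptor (Plaur) and turns plasminogen into plasmin, which digests fibrin. Mast cells are best known for the tryptases, chymases and carboxypeptidase of their granules, and less for these families.

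Between 28273365 and 37100869 reads per library were assigned to genes. All 8 mast cell markers were read in every library, with summed levels of 19361 to 20611 CPM (reads scaled to library size) in BALB/c and 24465 to 25452 CPM in C57BL/6. Tpsb2 (26047 to 43089 reads against 141043 to 174215) and Hdc rose past 2-fold, Kit (0.14), Fcer1a (0.13) and Ms4a2 (0.25) were higher in C57BL/6 by adjusted p, Mitf fell by 0.23 on the log2 scale, and Cpa3 (-0.02) and Gata2 (0.07) did not pass the test. Of 8 macrophage markers, Csf1r, C1qa, C1qb and C1qc had no read in any library and Lyz2 and Mrc1 had at most 2. The remaining pair, Adgre1 (16, 0 and 16 reads against 304, 268 and 365) and Cd68 (36, 21 and 34; 134, 91 and 126), rose in C57BL/6, which moved the summed macrophage markers from 0.705 to 1.63 CPM up to 13.3 to 13.9 CPM. Of 6 basophil markers, 3 were past the thresholds and higher in C57BL/6 (Mcpt8, Prss34 and Ccl9), Ms4a3 rose by 0.99 (30, 31 and 47 reads against 60, 59 and 85), while Il18r1 fell by 0.54 on the log2 scale and Cd200r3 (-0.07) did not pass. The basophil sums were 405 to 417 CPM in BALB/c and 502 to 513 CPM in C57BL/6. Of the 4 megakaryocyte markers, Itga2b rose by a log2 fold change of 0.58, Gp1bb fell by 1.89 on the log2 scale, and Pf4 and Gp9 had at most 2 reads, with sums of 1089 to 1164 CPM in BALB/c and 1617 to 1713 CPM in C57BL/6. No library had more than 4 reads of any of 7 neutrophil markers, 2 of any of 7 fibroblast or stromal markers and 15 of any of 4 eosinophil markers. The mast cell, macrophage, basophil and megakaryocyte sums moved in the same direction as the members that rose in C57BL/6, and their part in the results was not tested. Most of the rise in the mast cell sum lay in Tpsb2, and most of that in the megakaryocyte sum in Itga2b. In bulk RNA, fewer cells of a type and less RNA per cell cannot be told apart.

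Reads were found for 63 of the 107 members, and 44 had no read in any library. Another 33 had reads but too few for the test, so 30 members were tested. Levels between genes are compared in TPM, which corrects the reads for transcript length and depth. Summed over the members, the level was 541, 479 and 512 TPM in BALB/c BMMCs and 839, 817 and 825 TPM in C57BL/6 BMMCs. The groups did not overlap, and in reads the members took 0.112% to 0.126% of a BALB/c library and 0.189% to 0.190% of a C57BL/6 library. A large share came from few genes: Fgl2 and Hgfac together held 42.2% to 44.2% of the summed TPM in BALB/c and 53.5% to 54.6% in C57BL/6. Without them the sums were 277 to 302 TPM and 371 to 384 TPM. Those sums still held other members picked by name, of which Plau, Plaur, Htra1 and Prcp rose and Htra2 fell. By family, the ADAM sums were 120 to 132 TPM in BALB/c and 160 to 171 TPM in C57BL/6. The ADAMTS sums were 42.6 to 53.1 TPM in BALB/c and 34.4 to 38.3 TPM in C57BL/6. In the order of mean TPM over all 6 libraries, Fgl2 and Hgfac were followed by Plau, Adam10, Adam8, Htra2, Htra1, Adamts1, Adam17 and Adam9. Below them came Adamts10, Adam15, Adamts13, Prcp and Adamts5. Adjacent genes in this order overlapped in places, and the order differed between the strains. Htra1 (mean 9.81 TPM) was below Adamts1 (21.7 TPM) in BALB/c, and Adamts13 (1.80 TPM) was below Prcp (7.78 TPM) in C57BL/6. In BALB/c BMMCs, Plau (47.9 to 51.8 TPM) and Adam10 (50.3 to 56.0 TPM) overlapped in TPM, and so did Adam17 (16.6 to 17.1 TPM) and Adam9 (16.4 to 18.1 TPM).

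**Figure D1:**
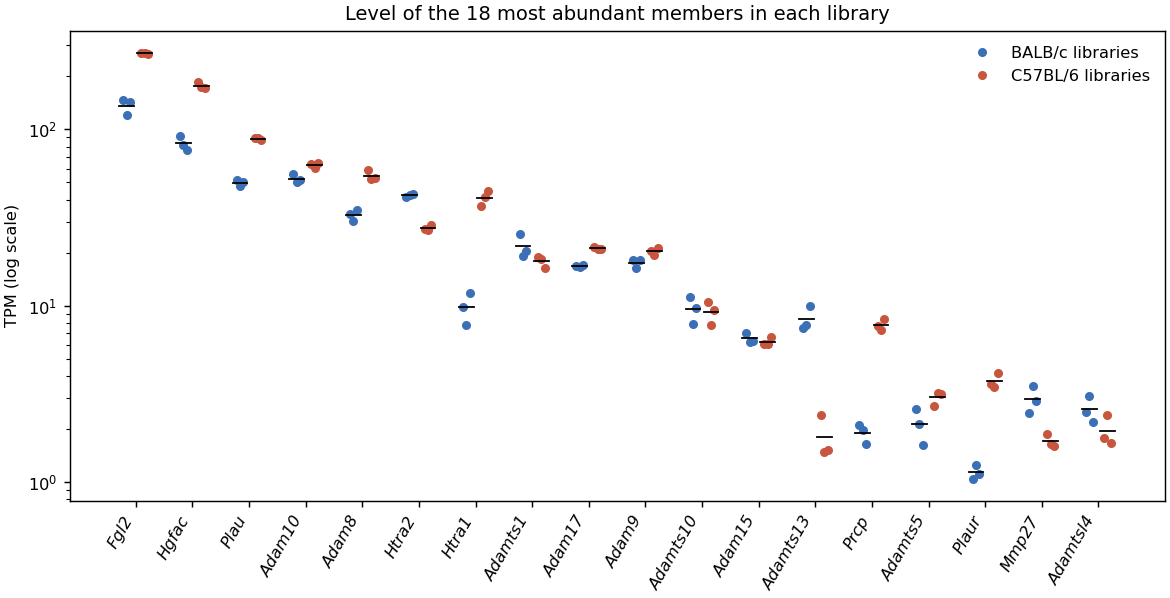
Level in TPM (log scale) of the 18 most abundant members in each library, ordered by their mean; each point is 1 library and the short lines are the means of 3. Htra1, Prcp and Plaur sit apart and higher in C57BL/6, Adamts13 sits apart and higher in BALB/c, and Adamts10 and Adam15 overlap.

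The quasi-likelihood test of edgeR was run on 12461 genes with p adjusted by Benjamini-Hochberg, and a gene was called at an adjusted p under 0.05 and a change above 2-fold. Fold changes are C57BL/6 over BALB/c. Higher in C57BL/6 BMMCs were 7 members (Fgl2, Hgfac, Plau, Plaur, Htra1, Prcp and Mmp14), which is 23.3% of those tested, against 7.73% of all genes tested. Higher in BALB/c BMMCs were 3 members (Adamts13, Adamts9 and Adamts20), 10% of those tested against 5.54% of all genes tested. The members were picked with results of these data known, so the shares are descriptions. Of the 7, Mmp14 alone entered the rule by its family symbol, and the others were picked by name. Htra2, Htra3 and Plat were also picked by name and were not called. All 3 members higher in BALB/c entered by family symbol. By adjusted p alone, 12 members were higher and 7 lower in C57BL/6, 63.3% of those tested. Among all genes tested the share was 52.9%, with 27.0% higher and 25.9% lower in C57BL/6, so the members lay close to the background. In 21 of the 30 the normalised counts of the strains did not overlap, as in 61.9% of all genes tested. The median log2 fold change was 0.14 over the members tested and -0.01 over all genes tested. A permutation test of 1 gene, exact over 3 and 3 libraries, cannot reach a p below 0.1.

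**Figure D2:**
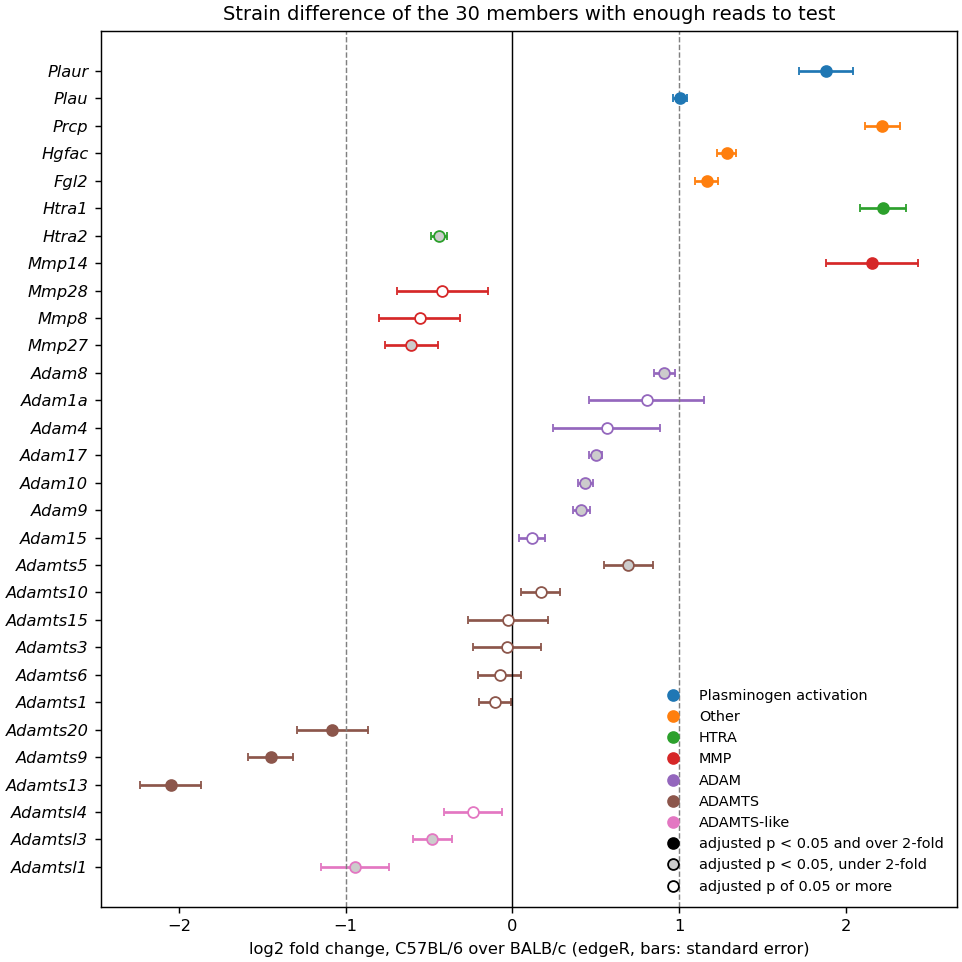
Log2 fold change (C57BL/6 over BALB/c) with its SE for the 30 members tested, coloured by family; filled points passed both thresholds, grey points the adjusted p only, open points neither, and dashed lines mark 2-fold. The 3 members that were higher in BALB/c past both thresholds are all ADAMTS genes, and the ADAM genes that passed the adjusted p are all higher in C57BL/6.

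Both genes of plasminogen activation that were read were called higher in C57BL/6 BMMCs (100% of those tested, against 7.73% of all genes tested). Both were picked by name. Plau, urokinase (GRCm39 chr14:20886722-20893453, plus strand), was at 51.8, 47.9 and 50.2 TPM in BALB/c and 88.9, 89.8 and 87.5 TPM in C57BL/6. The groups stood well apart, with little spread inside either. Plau rose by a log2 fold change of 1.01 (standard error, SE, 0.04, adjusted p 1.87e-07 in edgeR), just past the 2-fold line, and fell to 0.97 without library S10 and to 0.98 without S13. Plaur, the receptor that holds urokinase on the cell surface (chr7:24161875-24175394, plus strand), had 31, 35 and 40 reads in BALB/c against 119, 101 and 155 in C57BL/6. All 3 C57BL/6 libraries lay above the BALB/c libraries, with a log2 fold change of 1.88 (SE 0.16, adjusted p 1.40e-05 in edgeR). Per length the receptor stayed far below the enzyme, at 1.13 ± 0.11 TPM in BALB/c and 3.72 ± 0.371 TPM in C57BL/6 (SD, n = 3), where Plau had means of 50.0 and 88.7 TPM. Plat, the tissue-type activator, had no read in any library.

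Upstream sequence from RefSeq (GRCm38.p6) is shown for 4 called members, 2 higher in each strain, to set their upstream letters side by side, and they are searched for motifs further on. They were picked from the 6 called members whose window shares no sequence with transcripts of the gene, and those of Fgl2 and Adamts20 are not printed. The window runs from 250 to 51 bases before the listed start. For Plaur it is chr7:24462233-24462432 on the plus strand, and capitals mark a match to the AP-1 motif TGANTCA. Hgfac (chr5:35041259-35041458, plus strand) is the second, and Adamts13 (chr2:26973166-26973365, plus strand) and Adamts9 (chr6:92943585-92943784, minus strand) were higher in BALB/c.
Plaur: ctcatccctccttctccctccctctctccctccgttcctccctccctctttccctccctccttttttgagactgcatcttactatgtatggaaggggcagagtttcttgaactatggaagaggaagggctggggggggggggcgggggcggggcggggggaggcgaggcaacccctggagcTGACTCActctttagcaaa
Hgfac: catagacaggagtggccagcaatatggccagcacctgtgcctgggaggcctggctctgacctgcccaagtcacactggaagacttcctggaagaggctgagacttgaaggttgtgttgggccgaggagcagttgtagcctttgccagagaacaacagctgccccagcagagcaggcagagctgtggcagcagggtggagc
Adamts13: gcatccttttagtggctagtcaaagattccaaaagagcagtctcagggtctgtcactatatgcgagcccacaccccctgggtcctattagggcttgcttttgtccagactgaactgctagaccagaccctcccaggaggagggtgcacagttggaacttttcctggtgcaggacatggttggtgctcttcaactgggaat
Adamts9: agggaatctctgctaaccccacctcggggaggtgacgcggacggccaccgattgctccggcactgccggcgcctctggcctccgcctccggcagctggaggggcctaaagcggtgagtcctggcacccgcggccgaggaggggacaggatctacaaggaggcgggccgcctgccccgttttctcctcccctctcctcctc

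The substrate and receptors of the pathway were taken from a list of 10 genes (plasminogen, its receptors, and the growth factor HGF with its relatives). Of these, 4 were tested, none was called, and 3 were higher in C57BL/6 by adjusted p alone (75% of those tested, against 27.0% of all genes), with a median log2 fold change of 0.53 over those tested. Plg, plasminogen itself, had no read. S100a10, which with annexin A2 (Anxa2) binds plasminogen at the membrane, was abundant, at 404, 455 and 411 TPM in BALB/c and 507, 467 and 505 TPM in C57BL/6. It rose by a log2 fold change of 0.40 (SE 0.05, adjusted p 0.000214). Plgrkt, a membrane receptor for plasminogen, had 96.7, 95.7 and 100.3 TPM against 135, 124 and 128 TPM and rose by 0.58 (SE 0.04, adjusted p 5.25e-06). Anxa2 had a log2 fold change of 0.48 at an adjusted p of 0.052.

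Inhibitors of these proteases were read unevenly. Of 11 inhibitors, 6 were tested and 3 of them were called, all higher in C57BL/6 (50% of those tested, against 7.73% of all genes tested). The median log2 fold change over the 6 was 1.32. Serpinb2, an inhibitor of urokinase, had 8, 7 and 14 reads in BALB/c against 51, 73 and 71 in C57BL/6 (log2 fold change 2.83, SE 0.31, adjusted p 5.94e-05), and it overlaps Serpinb10 on the same strand. Serpine2, a serpin that also inhibits urokinase, had 112, 49 and 112 reads against 76, 74 and 79, which overlapped (-0.16, adjusted p 0.629). Reck, a membrane-anchored inhibitor of MMPs, had 1, 1 and 2 reads in BALB/c against 70, 49 and 68 in C57BL/6, a ratio of 49.1 with an exact 95% counting interval of 18.9 to 182. Timp2, a secreted MMP inhibitor, went the other way with 65, 72 and 70 reads against 45, 38 and 40 (log2 fold change -0.68, SE 0.19, adjusted p 0.0146). It shares exon sequence on the same strand with Cep295nl.

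Hgfac encodes a secreted serine protease that activates hepatocyte growth factor (chr5:35198853-35205805, plus strand). It was at 91.9, 81.8 and 76.2 TPM in BALB/c and 187, 173 and 172 TPM in C57BL/6, the next highest member after Fgl2 in both strains. No library of one strain came near the other, and Hgfac rose by a log2 fold change of 1.29 (SE 0.06, adjusted p 2.13e-07 in edgeR). Spint1, the membrane inhibitor of this enzyme, had 63.8, 54.2 and 62.6 TPM in BALB/c and 264, 259 and 280 TPM in C57BL/6. Enzyme and inhibitor were thus both higher in C57BL/6, Spint1 by the larger log2 fold change of 2.34 (SE 0.07, adjusted p 1.20e-08). Their order turned: Hgfac was above Spint1 in each BALB/c library and below it in each C57BL/6 library in TPM. Spint2, a related inhibitor, had a log2 fold change of 0.30 at an adjusted p of 0.091. Hgf, the growth factor, had 56, 57 and 49 reads in BALB/c against 94, 82 and 121 in C57BL/6 (0.93, SE 0.18, adjusted p 0.00231). Its receptor Met had no read in BALB/c and 6, 9 and 13 in C57BL/6.

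Fgl2 was the most abundant member, a fibrinogen-related protein that can cut prothrombin at the membrane and is also secreted (chr5:21577640-21597055, plus strand). It had 147, 120.2 and 143 TPM in BALB/c and 271, 273 and 269.6 TPM in C57BL/6. The C57BL/6 libraries were nearly equal, and S10 was the lowest of the BALB/c libraries. Fgl2 rose by a log2 fold change of 1.17 (SE 0.07, adjusted p 1.50e-06), and by 0.99 on the log2(TPM + 1) scale, below the 2-fold line.

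Prcp encodes a lysosomal serine carboxypeptidase (chr7:92523678-92584954, plus strand). Its reads were 129, 115 and 124 in BALB/c against 535, 449 and 663 in C57BL/6. The lowest C57BL/6 library was above every BALB/c library, and the log2 fold change was 2.22 (SE 0.10, adjusted p 2.90e-07). In TPM it went from 1.90 ± 0.229 to 7.78 ± 0.608 (SD, n = 3), still a small part of the members' sum.

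The HTRA genes, serine proteases that degrade misfolded or matrix proteins, went in opposite directions. Htra1, the secreted member (chr7:130537518-130587390, plus strand), had 404, 305 and 596 reads in BALB/c against 1710, 1699 and 2352 in C57BL/6. Relative to their mean the BALB/c libraries varied more, yet they remained far below the others (log2 fold change 2.23, SE 0.14, adjusted p 1.71e-06). Htra2, the mitochondrial member, had 41.4, 42.3 and 43.2 TPM in BALB/c and 27.3, 26.7 and 28.8 TPM in C57BL/6. It fell by 0.44 on the log2 scale (SE 0.05, adjusted p 6.43e-05), without overlap of the groups. In TPM, Htra2 was above Htra1 in each BALB/c library, while in C57BL/6 Htra1 had 36.7, 41.2 and 44.9 TPM and was above Htra2. Htra3 had 1 to 6 reads in a library and was not tested.

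The MMP genes were low. Of 23, 8 had no read, among them the collagenase Mmp13, the stromelysins Mmp3 and Mmp10 and the macrophage elastase Mmp12, and 4 had enough reads to be tested. Their summed level was 3.87 to 4.97 TPM over all 6 libraries, while the ADAM genes together had 120.2 to 171 TPM. Mmp14 was the MMP that passed both thresholds (25% of those tested, against 7.73% of all genes tested). It encodes the membrane-bound MT1-MMP, which activates pro-MMP2 (chr14:54668878-54682821, plus strand). Mmp14 had 28, 11 and 34 reads in BALB/c against 93, 93 and 122 in C57BL/6. The strains did not overlap, S10 was the lowest library, and the gene rose by a log2 fold change of 2.16 (SE 0.27, adjusted p 0.000167), which was 0.73 on the log2(TPM + 1) scale.

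Mmp27 was the most abundant MMP in TPM and had 107, 143 and 151 reads in BALB/c against 92, 71 and 88 in C57BL/6. It fell by 0.61 on the log2 scale (SE 0.16, adjusted p 0.0112), under 2-fold. Mmp8, the neutrophil collagenase, had 33, 32 and 30 reads against 19, 17 and 26 and did not pass (log2 fold change -0.56, adjusted p 0.084), nor did Mmp28 (-0.42, adjusted p 0.229). Mmp2, the gelatinase that MT1-MMP activates, had 11, 9 and 7 reads in BALB/c and none in C57BL/6, the opposite order to Mmp14. The mean level of Mmp2 in BALB/c was 2.88 times a limit of 3 counts per C57BL/6 library. The exact 95% counting interval of its ratio began at 6.50-fold. Mmp2 was too low for the main test, while DESeq2 called it higher in BALB/c. Mmp9, the other gelatinase, had 1, 1 and 0 reads against none.

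The ADAM genes were read as a small set. Of 34, 19 had no read, 8 had too few and 7 were tested, and 4 of these passed the adjusted p (57.1%, against 27.0% of all genes in this direction and 52.9% in either), all higher in C57BL/6 and all under 2-fold. They were also the 4 most abundant ADAM genes in TPM. Adam10, the sheddase of Notch receptors, had 56.0, 50.3 and 51.4 TPM in BALB/c and 64.0, 60.5 and 64.4 TPM in C57BL/6. It rose by a log2 fold change of 0.44 (SE 0.04, adjusted p 3.33e-05). Adam17, the enzyme that releases TNF, had 16.7, 16.6 and 17.1 TPM against 21.5, 21.1 and 21.0 TPM and rose by 0.50 (SE 0.04, adjusted p 6.50e-06). Both genes varied little within a strain, and Adam10 was above Adam17 per length.

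Adam8, a sheddase of white blood cells, had 33.3, 30.1 and 34.8 TPM in BALB/c and 58.6, 52.1 and 53.1 TPM in C57BL/6. With a log2 fold change of 0.91 (SE 0.06, adjusted p 3.06e-06) it had the largest change of the 4 and stayed below the 2-fold line. Adam15, an ADAM that binds integrins, overlapped between strains (6.25 to 7.02 TPM against 6.03 to 6.67 TPM, log2 fold change 0.12, adjusted p 0.229), and its sign turned with the scaling. Adam1a (0.81, adjusted p 0.077) and Adam4 (0.57, adjusted p 0.170) had 9 to 35 reads per library. Adam1a shares 31.9% of its 31-base words with Adam1b, so the split of their reads is uncertain, and it was called higher in C57BL/6 without library S13.

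Adam9, another membrane sheddase, had totals under 2-fold apart, with 1534, 1319 and 1868 reads in BALB/c against 1988, 1664 and 2326 in C57BL/6 (log2 fold change 0.41, SE 0.05, adjusted p 0.000154). Its reads were assigned to different transcripts, however. In BALB/c, 1533.9, 1318.6 and 1868.3 estimated reads were on the 4003-base RefSeq transcript, which was 100% of the gene. In C57BL/6 the same transcript held 19.9, 0 and 0 reads, and the 4057-base transcript held 1968.1, 1636.9 and 2318.4, or 98.4% to 99.7% of the gene. That transcript had no read in BALB/c. Such an exchange, with over 90% of reads in every library of one strain and under 10% in every library of the other, was found for 1 of 13 members with more than 1 transcript and at least 100 reads in every library. Among all genes of that kind it was found for 6 of 6930 (0.0866%). This rule was set after the Adam9 values were seen, and the bases that tell the transcripts apart were not compared here. Reads of both strains were assigned against the same reference. Whether sequence differences between the strains moved this assignment was not tested. By contrast, the main Adam8 transcript (3114 bases) held 59.7% to 75.3% of the gene in BALB/c and 64.9% to 73.8% in C57BL/6. For Adam17, the 4451-base transcript held 67.5% to 76.8% and 57.6% to 64.3%, so it was the main one in both strains.

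**Figure D3:**
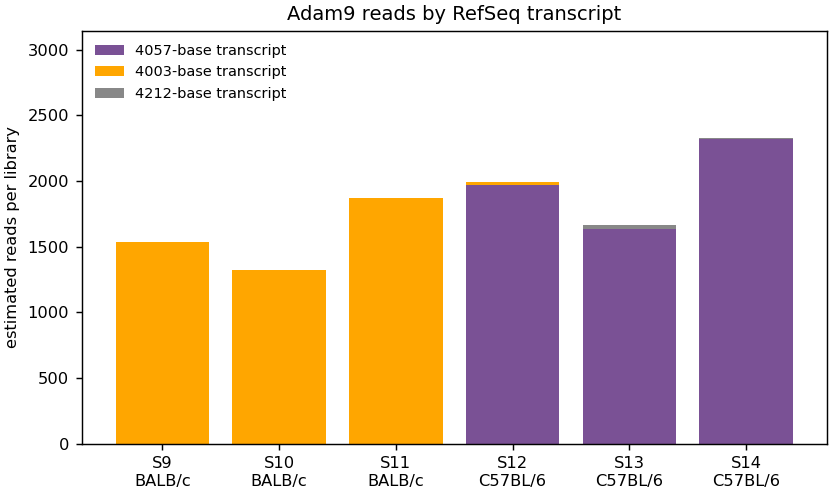
Estimated reads of Adam9 in each library, stacked by RefSeq transcript, named by length. All BALB/c reads are on the 4003-base transcript and nearly all C57BL/6 reads on the 4057-base transcript, while the totals are under 2-fold apart.

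Partners carry or mature ADAM10 and ADAM17. Of 13, 7 were tested, 1 was called, higher in C57BL/6 (14.3%, against 7.73% of all genes) and 1 more passed the adjusted p, with a median log2 fold change of 0.09. Rhbdf2, the iRhom that brings ADAM17 to the surface of blood cells, had 840, 630 and 1036 reads in BALB/c against 1686, 1432 and 1880 in C57BL/6. It rose by a log2 fold change of 1.08 (SE 0.08, adjusted p 7.64e-06), by 0.97 without library S10 and by 0.93 on plain library size. Its relative Rhbdf1 had a value of 0.13 (adjusted p 0.370). Furin, which removes the inhibitory propeptide of ADAM proteins, was the most abundant partner, at 379, 359.9 and 331 TPM in BALB/c and 277, 265 and 272 TPM in C57BL/6. It fell by 0.21 on the log2 scale (SE 0.04, adjusted p 0.00224). Frmd8, which stabilises iRhoms, had a value of 0.09 (adjusted p 0.178), and its sign turned with the scaling.

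Proteins that these sheddases release were taken from a list of 15. Of these, 10 were tested, 5 were called, all higher in C57BL/6 (50% of those tested, against 7.73% of all genes tested), and the median log2 fold change was 0.78. Tnf had 55.6, 31.3 and 32.5 TPM in BALB/c and 118, 88.9 and 105 TPM in C57BL/6. Library S9 stood above the other BALB/c libraries but below all C57BL/6 libraries (log2 fold change 1.57, SE 0.19, adjusted p 0.000119). The chemokine Cx3cl1 had 3, 0 and 0 reads in BALB/c against 219, 202 and 231 in C57BL/6, a ratio of 228 with an exact 95% counting interval of 77.8 to 1111. All BALB/c reads were in S9, and without it the fitted log2 fold change went from 7.67 to 10.81. The EGF receptor ligands Tgfa (69, 45 and 45 reads against 322, 293 and 376; 2.70, SE 0.18, adjusted p 2.35e-06) and Hbegf (81, 80 and 111 against 236, 207 and 253; 1.43, SE 0.11, adjusted p 5.85e-06) rose too. Tnfrsf1b, a TNF receptor, rose by 1.12 (SE 0.10, adjusted p 1.57e-05), and by 0.97 on plain library size, below the 2-fold line. Kit, the stem cell factor receptor of mast cells, had 546, 471 and 482 TPM in BALB/c and 493, 481 and 487 TPM in C57BL/6. It had a log2 fold change of 0.14 (adjusted p 0.038), whose sign turned on plain library size and on TPM. Notch2, a substrate of ADAM10, rose by 0.44 and Cd44 fell by 0.44 on the log2 scale.

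**Figure D4:**
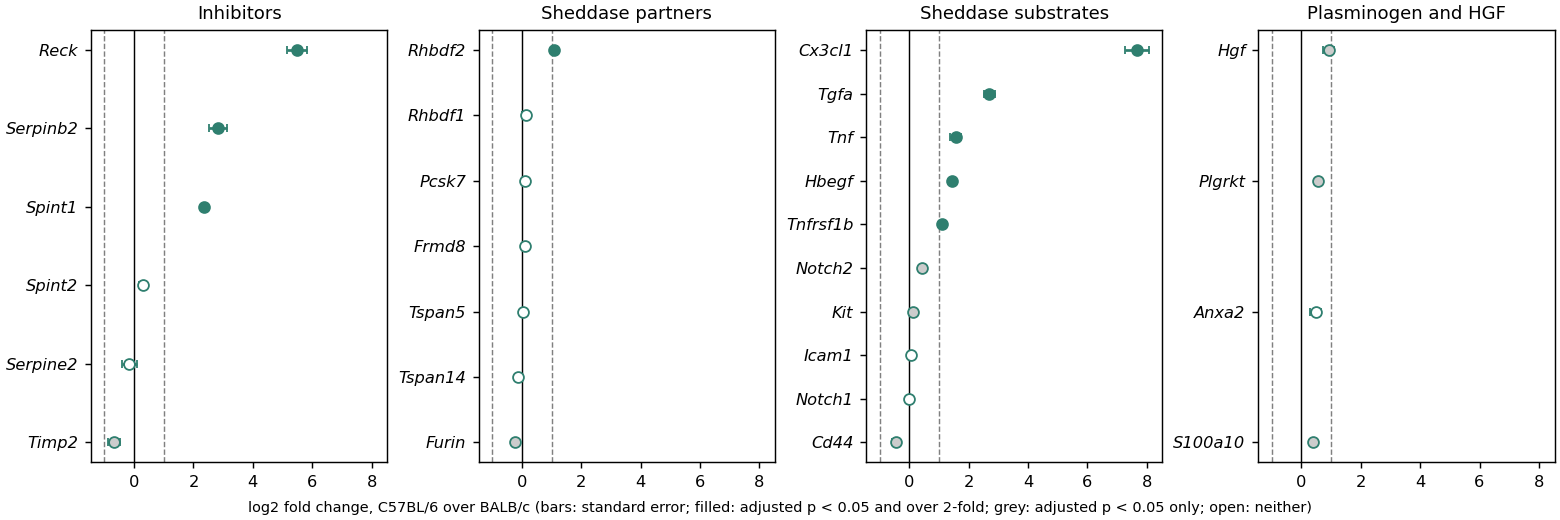
Log2 fold change (C57BL/6 over BALB/c) with its SE for the tested genes of the 4 lists that work with the members; filled points passed both thresholds, grey points the adjusted p only and open points neither. The called genes, 3 inhibitors, 1 partner and 5 substrates, all lie to the right of the 2-fold line, and none of the plasminogen and HGF genes does.

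All 3 members called higher in BALB/c BMMCs were secreted proteases of the ADAMTS family, in which 9 of 19 genes were tested (33.3% of these, against 5.54% of all genes tested). Adamts13, the protease that cuts von Willebrand factor (chr2:26863428-26899640, plus strand), had 543, 535 and 877 reads in BALB/c against 196, 108 and 140 in C57BL/6. The lowest BALB/c library had more reads than any C57BL/6 library, and Adamts13 fell by 2.05 on the log2 scale (SE 0.18, adjusted p 1.77e-05), which is 4.14-fold higher in BALB/c. Adamts9, which cuts aggrecan and versican (chr6:92749680-92920520, minus strand), had 304, 234 and 319 reads in BALB/c against 89, 101 and 106 in C57BL/6. Spread was small in both strains, and the gene was 2.73-fold higher in BALB/c (log2 fold change -1.45, SE 0.14, adjusted p 2.27e-05). Adamts20, a relative of Adamts9 (chr15:94166170-94363299, minus strand), had 82, 74 and 65 reads against 35, 30 and 35. It was 2.12-fold higher in BALB/c (log2 fold change -1.08, SE 0.21, adjusted p 0.0023) and at -0.98 without library S9.

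The other 6 tested ADAMTS genes were not higher in BALB/c by adjusted p. Adamts5, an aggrecanase, was the tested ADAMTS gene that was higher in C57BL/6 by adjusted p, with 455, 358 and 350 reads against 537, 561 and 707 (0.70, SE 0.15, adjusted p 0.00345). Adamts1, the most abundant of the family and a protease of versican, had 25.4, 19.2 and 20.4 TPM in BALB/c and 18.8, 18.5 and 16.3 TPM in C57BL/6. All C57BL/6 libraries were lower in TPM, but the normalised counts overlapped (log2 fold change -0.10, adjusted p 0.401). Adamts10, linked to fibrillin, had 7.82 to 11.1 TPM and 7.75 to 10.5 TPM (0.17, adjusted p 0.251), with a sign that turned on the TPM scale. Adamts3, Adamts6 and Adamts15 lay between -0.08 and -0.03 and did not pass.

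ADAMTS-like genes encode secreted matrix proteins without a protease domain. Of 5, 3 were tested and 2 passed the adjusted p (66.7%, against 25.9% of all genes), both higher in BALB/c and under 2-fold. Adamtsl1 had 488, 525 and 350 reads in BALB/c against 228, 198 and 261 in C57BL/6. Without library S11, on plain library size and on log2(TPM + 0.1) it crossed the 2-fold line, and with all libraries it fell by 0.95 on the log2 scale (SE 0.20, adjusted p 0.00387). Adamtsl3 had 206, 196 and 198 reads against 140, 118 and 154 (log2 fold change -0.48, adjusted p 0.00775). Adamtsl4 had a value of -0.24 (adjusted p 0.283). In the TMPRSS family of membrane serine proteases, 10 of 17 genes had no read and the other 7 had at most 11 in a library, so none was tested.

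Upstream windows of 200 bases, as printed above for Plaur, Hgfac, Adamts13 and Adamts9, were found for 9 of the 10 called members, Plau being without one. Motifs of mast cell and stimulus-dependent factors were searched on both strands, and no match of one overlapped another. A GATA motif, read as AGATAA or with the starting letter changed as TGATAA, was in 1 of the 9 windows and in 14.2% of 32851 windows of all genes. The match was in the window of Prcp (ttggggagccatAGATAAggatggggcaaa, capitals), which, like those of Htra1 and Mmp14, lies at least in part within annotated transcripts of the gene. An E-box of the kind bound by MITF, spelled CACGTG or in the variant form CATGTG, was in none of the 9 and in 14.2% of all. The AP-1 motif TGANTCA was in 1, that of Plaur, and in 5.57% of all windows. The members that rose together therefore had no match to these letters in common in these windows.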

How the data were processed

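RNA of 3 BALB/c and 3 C57BL/6 BMMC libraries was analysed. Per the submitters' notes, reads were checked with FastQC 0.11.5 and quantified with Salmon 0.8.2 (GRCm39), on a stranded mRNA kit. The authors deposited, for each RefSeq transcript, an estimated count of reads, a TPM value and the transcript's length and effective length. Of 129698 transcripts, 106440 (82.1%) were paired with a symbol through a RefSeq table of GRCm38.p6, version removed. The unpaired ones held 2.69% to 3.12% of reads. Both strains were quantified against the same reference. Its effect on genes with few reads in BALB/c, such as Reck and Cx3cl1, was not tested. Estimated counts were summed by gene, rounded and fitted with edgeR 4.0.16 (R 4.3.3; TMM, filter at a minimum count of 10, strain as the only term). The script was tested on simulated data. The biological coefficient of variation was 0.0665, so depth limits only genes with few reads, whose intervals cover counting error only. Gene coordinates are from GENCODE on GRCm39. Sequence shared between genes was searched in words of 31 bases, and no called gene shared 25% of them.

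Members, gene lists and tests were chosen with earlier results of these data known. Named are the called members, the 15 most abundant, Plau, Plaur, Plat, Hgfac, Prcp, Fgl2 and the HTRA genes, and, per list, called genes and the 2 most abundant. Others, among them Mmp2, Mmp27 and the ADAMTS-like genes, were chosen after their values were seen. A gene of the inhibitor list is not reported here. Alternatives were DESeq2 1.42.0 and edgeR with and without a length offset, other normalizations and filters, limma 3.58.1 on log2 TPM with a pseudocount of 1 or 0.1, unpaired transcripts kept, other thresholds, ADAMTS-like genes left out, and each library left out.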

Additional observations from a re-analysis of the deposited data

How the results depend on the processing

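The 7 members called higher in C57BL/6 BMMCs became 4 with limma on log2(TPM + 1), where Fgl2 (0.99), Mmp14 (0.73) and Plau (0.82) fell short of 2-fold, and 12 by adjusted p alone. The 3 called higher in BALB/c became 1 on log2(TPM + 1), where Adamts9 (-0.76) and Adamts20 (-0.37) fell short, 6 with no filter, which added Adamts4, Adamtsl2 and Mmp2, and 7 by adjusted p alone. With each library left out in turn the counts ranged from 6 to 8 and from 3 to 4. Every other alternative kept both counts within 1.5 times, and DESeq2 gave 8 and 4. Tested in edgeR against a 2-fold change, the counts were 5 and 2, and Fgl2, Plau and Adamts20 lost their call. Plau was below 2-fold on plain library size (0.86), upper-quartile factors (0.99) and log2(TPM + 0.1) (0.83), and just below it with no filter and with unmatched transcripts kept. Fgl2 was below it on log2(TPM + 0.1) (0.99), and Tnfrsf1b (0.78 and 0.92) and Rhbdf2 (0.85 and 0.90) on log2(TPM + 1) and log2(TPM + 0.1). Reck (0.64), Serpinb2 (0.99) and Hbegf (0.92) fell short on log2(TPM + 1). Of 575 values of 34 named genes under alternatives, 539 kept their direction and their call (adjusted p and fold together). Another 24 lost a call and 12 turned sign. The test against a 2-fold change is not among these values. The adjusted p of Spint2 (0.0273 to 0.368), Adamts1 (0.0472 to 0.888) and Frmd8 (0.027 to 0.509) crossed 0.05 in some. On plain library size, log2(TPM + 1) and log2(TPM + 0.1), the sign turned for Adam15 (-0.03, -0.05 and -0.06), Frmd8 (-0.05, -0.09 and -0.09) and Kit (-0.0039, -0.03 and -0.03). These settings move the median of all genes by -0.14, -0.14 and -0.17. Adamts10 turned to -0.04 and -0.05 on the TPM scales, and Adamts1 to 0.01 without library S9 (BALB/c replicate 1), in a range of -0.18 to 0.01 with each library left out. The cause was not tested. Reads of copies were not summed, since none of the 34 genes shared enough sequence with another. Adam1a, not among the 34, does, and its copy Adam1b had at most 1 read per library. Members with few reads are limited by depth. No paired analysis was possible because the labels give no replicate numbers, and those used here only follow the order of the samples.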

Other observations

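Members below the main filter were read in 1 strain more than in the other in several cases, chosen here after their values were seen. They had too few reads for the main test. Mmp19, a soluble MMP, had 1 read in each BALB/c library and 7, 12 and 8 reads in the C57BL/6 libraries. Mmp25, a membrane-anchored MMP, had no read in BALB/c and 3, 3 and 6 in C57BL/6, and Mmp7 (matrilysin) had none against 2, 1 and 7. With no filter on low counts edgeR called all 3 higher in C57BL/6, a count of 9 members in which Plau was lost, and DESeq2 called Mmp19. In the other direction, the aggrecanase Adamts4 had 9, 9 and 11 reads in BALB/c and 2, 0 and 5 in C57BL/6, and Adamtsl2 had 9, 20 and 17 against 6, 4 and 8. Adam28, whose protein is a sheddase of lymphocytes, had 3 to 7 reads in every library, all on a non-coding RefSeq transcript. Mmp11 had 4 to 6 reads in BALB/c against 12, 4 and 13 in C57BL/6.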
